A study of Homo sapiens with 6 samples.

Results

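Keratins are the intermediate filament proteins of epithelial cells, and 10 of them were followed in HCT116, an established human colorectal carcinoma cell line, with and without knockdown of PLEK2. The 10 genes (KRT15, KRT8, KRT18, KRT19, KRT20, KRT23, KRT80, KRT17, KRT10 and KRT7) were found by symbol among the 17047 genes of the deposited table, which held 44 of 54 human keratin genes looked for. KRT15 was chosen because of its difference between the groups in these same libraries, and the others were chosen with results of these data known. For these genes the difference between the groups is therefore given as a description with no test.

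The shPLEK2 group was HCT116 cells transduced with a single PLEK2 shRNA, and the shNC group was the same cells with a non-targeting shRNA. Each group held 3 libraries, numbered 1 to 3. Both groups carried an shRNA vector. With 1 shRNA sequence, an effect of losing PLEK2 cannot be told apart from another effect of that sequence. Polyadenylated RNA was read as single-end reads of 50 nt, and estimated counts summed to between 14377532 and 15602732 per library. PLEK2, a pleckstrin-family protein linked to the actin cytoskeleton, had 85.9, 72.6 and 82.8 CPM (counts scaled to the library total by TMM) in shNC replicates 1 to 3 and 16.01, 32.2 and 34.9 in shPLEK2 replicates 1 to 3, so the groups did not overlap.

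A keratin filament is built from heterodimers of an acidic type I and a basic type II keratin, and a cell's keratin set follows its epithelial type. KRT8 (type II) and KRT18 (type I) form the core filament of simple epithelia such as the intestine, where KRT19 joins them and KRT20 marks more differentiated cells. KRT7 is a type II keratin of glandular and ductal epithelia. KRT15 is a type I keratin of basal cells in stratified epithelia and of the hair follicle bulge, KRT10 is a suprabasal epidermal keratin, and KRT17 appears in skin appendages and wounded skin. Filaments are tied to cell junctions through desmosomes and to the basement membrane through hemidesmosomes.

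The sequence targeted in PLEK2 is shown because it is what sets the groups apart. It was found in the PLEK2 coding sequence, in exon 2 of 9, at chr14:67397753-67397773 on the minus strand of GRCh38.
PLEK2 shRNA target: gctggtgtactacaagcttga

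The type I keratins other than KRT18 lie on chromosome 17 and resemble each other, so 50-base reads must tell them apart. The lines below show 50 coding bases of KRT15 (chr17:41518457-41518506, minus strand, exon 1 of 8, GRCh38) and the matching stretch of 5 neighbouring genes. This stretch, which encodes the start of the rod domain, is the coding window within 1 exon that had the fewest differences from KRT15 summed over the 5 genes. Capitals mark bases that differ from KRT15.
KRT15: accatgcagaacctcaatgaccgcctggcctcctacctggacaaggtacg
KRT13: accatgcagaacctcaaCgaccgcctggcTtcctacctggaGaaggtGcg
KRT14: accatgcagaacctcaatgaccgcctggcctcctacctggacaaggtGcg
KRT16: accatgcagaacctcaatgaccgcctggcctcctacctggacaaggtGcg
KRT17: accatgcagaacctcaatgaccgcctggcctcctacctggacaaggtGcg
KRT19: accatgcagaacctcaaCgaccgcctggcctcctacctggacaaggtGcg
In this stretch KRT14, KRT16 and KRT17 differed from KRT15 at 1 base, KRT19 at 2 and KRT13 at 4. Over the whole KRT15 transcript, 99.0% of all 50-base windows had no exact match in another annotated gene. The 17 shared windows were shared with KRT13. Only exact matches were counted, so a window 1 base away from another gene counted as found in no other gene. The share of windows found in no other gene was 98.2% for KRT19, 99.3% for KRT10, 99.6% for KRT80, 95.6% for KRT23, 88.3% for KRT7 and 81.7% for KRT17, and no window of KRT20 was shared. It was lower for KRT8 (60.8%) and KRT18 (47.2%), which share windows with many processed pseudogenes. KRT18 also shared 326 windows with KRT8, and the loci of these 2 genes overlap over 1006 bases on chromosome 12. Whether strand was used in counting is not given in the sources used here, and reads of KRT8 and KRT18 in that overlap are uncertain. The deposited counts of all 10 keratins were whole numbers in every library.

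Most keratin RNA of HCT116 cells was KRT8, KRT18 and KRT19 in both groups. In FPKM, a count scaled to transcript length and library total, KRT8 measured 2193, 2573 and 2363 in the 3 shNC libraries, KRT18 measured 1829, 2090 and 2053, and KRT19 measured 849, 963 and 915. The remaining keratins lay at least an order of magnitude lower. KRT7 had 19.4, 30.1 and 21.6 FPKM and KRT15 had 16.6, 19.02 and 20.2, followed by KRT10 with 8.67, 9.41 and 10.8. KRT23 had 6.40, 8.84 and 6.55 FPKM, KRT80 had 3.52, 2.67 and 1.87, and KRT20 had 1.16, 1.26 and 0.95. KRT17 had between 0 and 3 counts in any library, too few for a level or a fold change. Ordered by mean shNC FPKM, KRT7 overlapped with KRT15, and KRT10 with KRT23, while all other neighbours in the order were apart in the 3 shNC libraries. The order by CPM was the same.

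KRT8, KRT18 and KRT19 together made up 98.4% ± 0.12 (SD, n = 3) of the summed keratin FPKM in shNC and 98.7% ± 0.13 (SD, n = 3) in shPLEK2. All keratins together took between 0.60% and 0.85% of the counts of a library. The 29 keratins of the table that did not pass the filter on low counts, KRT17 among them, reached at most 13 counts in a library. The epithelial label of the line was met by EPCAM (156 FPKM in shNC and 160 in shPLEK2), CDH1 (23.8 and 19.5) and CDX2 (7.82 and 7.66). Other colon markers were near 0: CDH17, VIL1, LGALS4 and GPA33 had at most 5 counts in a library.

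KRT15 was lower in every shPLEK2 library than in any shNC library. It measured 16.6, 19.02 and 20.2 FPKM in shNC replicates 1, 2 and 3 and 7.26, 11.2 and 9.32 in shPLEK2 replicates 1, 2 and 3. The means were 18.6 ± 1.84 and 9.26 ± 1.97 FPKM (SD, n = 3 each). Within same-numbered libraries the log2 ratio of CPM was -1.09, -0.77 and -1.11, a mean of -0.99 ± 0.19 (SD, n = 3), or 49.7% lower. The fit over all genes gave a log2 fold change of -0.98 (SE 0.14), and -0.99 (SE 0.09) with the replicate number as a block. KRT15 ranked 5 of 10 by mean FPKM in shNC and 6 of 10, below KRT10, in shPLEK2. In shPLEK2, KRT10 had 9.36, 8.44 and 10.35 FPKM in replicates 1 to 3, so the libraries of KRT15 and KRT10 overlapped there. Fewer cells with KRT15 and less KRT15 RNA per cell cannot be told apart in bulk RNA.

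**Figure D1:**
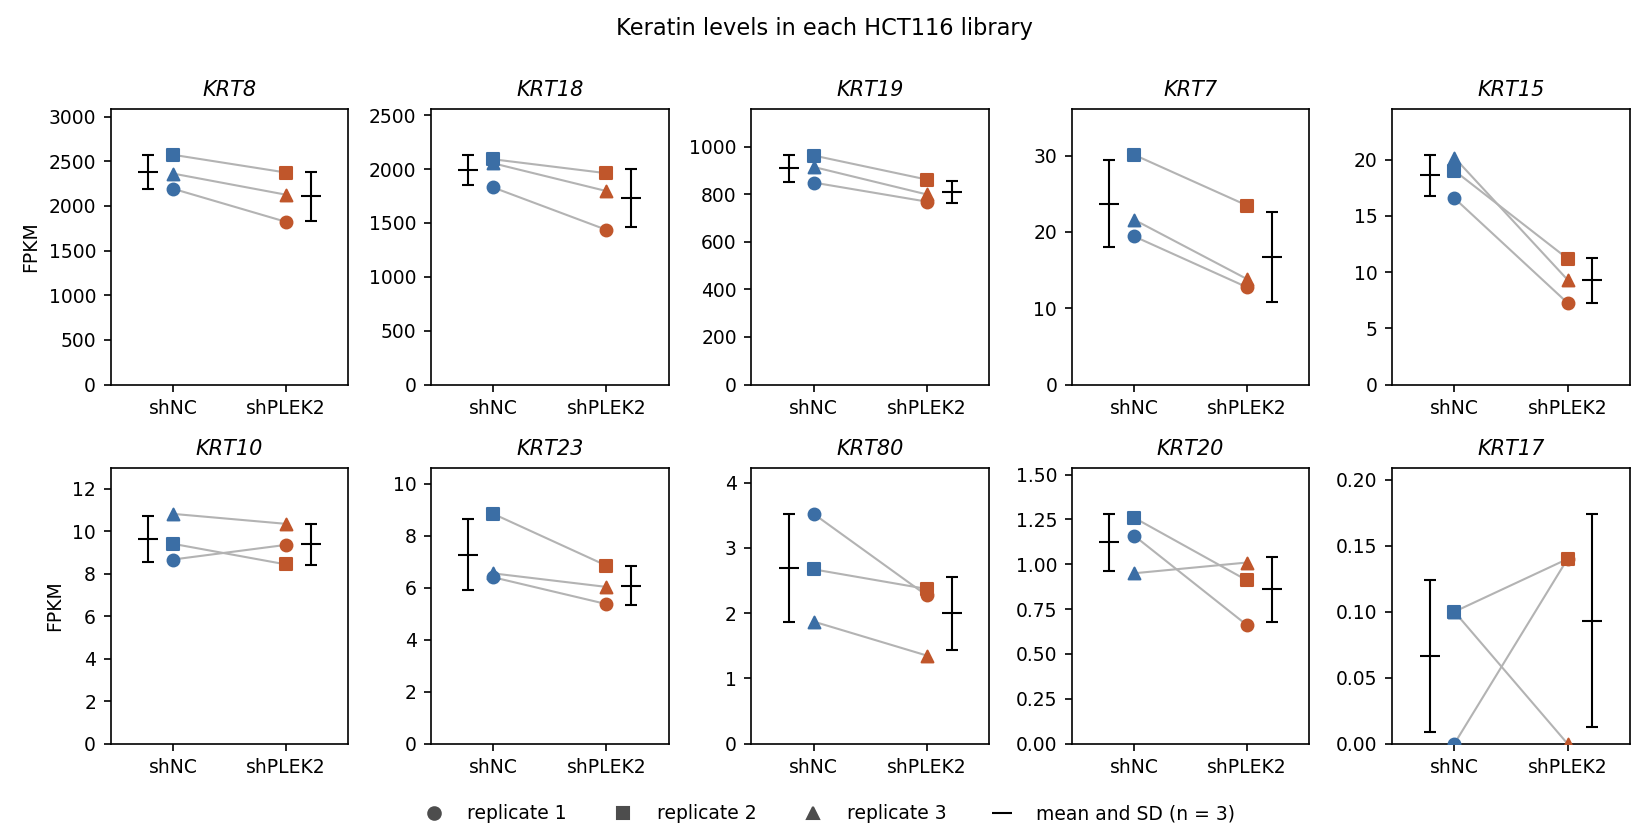
FPKM (linear axis from 0, a scale of its own for each gene) of the 10 keratins in each library of shNC and shPLEK2, with grey lines joining same-numbered libraries and black marks for the mean and SD (n = 3). KRT15 is the gene whose shPLEK2 values (7.26 to 11.2) all lie under its shNC values (16.6 to 20.2), and KRT17 is near 0 throughout.

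Among the simple epithelial keratins the differences were smaller and the groups mostly overlapped. KRT8 had 1822, 2374 and 2126 FPKM in shPLEK2 replicates 1 to 3, against 2193, 2573 and 2363 in shNC, with pair ratios of -0.32, -0.14 and -0.18 (log2 CPM). KRT18 had 1436, 1961 and 1796 FPKM in shPLEK2, with ratios of -0.41, -0.11 and -0.22. Both genes were lower in each pair, by most in pair 1, but the shPLEK2 replicate 2 value of each lay above the shNC replicate 1 value.

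KRT19 had the most even ratios of the set. It measured 769, 862 and 799 FPKM in shPLEK2, and its ratios were -0.20, -0.18 and -0.22, a mean of -0.20 ± 0.02 (SD, n = 3), or 12.9% lower. Its groups did not overlap in CPM and overlapped in FPKM. KRT7 had 12.7, 23.5 and 13.8 FPKM in shPLEK2 against 19.4, 30.1 and 21.6 in shNC, with ratios of -0.66, -0.39 and -0.66, or 32.6% lower on average. The KRT7 groups overlapped because shPLEK2 replicate 2 was above shNC replicates 1 and 3. KRT20, the marker of differentiated intestinal cells, had 0.66, 0.91 and 1.01 FPKM in shPLEK2, with ratios of -0.86, -0.49 and 0.06 from at most 30 counts in a library. KRT23 had 5.37, 6.85 and 6.03 FPKM, with ratios of -0.31, -0.26 and -0.05.

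The 2 remaining keratins differed from each other. KRT80, a type II keratin, had 2.27, 2.37 and 1.35 FPKM in shPLEK2 and ratios of -0.68, -0.20 and -0.49. KRT10 had 9.36, 8.44 and 10.4 FPKM and ratios of 0.05, -0.18 and -0.09, so its mean ratio of -0.07 ± 0.12 (SD, n = 3) was within the spread of the pairs.

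Of the 10 keratins, 9 passed the filter on low counts and KRT17 did not. Of these 9, 7 were lower in all 3 same-numbered pairs, where 21.1% of the 12959 genes tested were, and 0 were higher in all 3, where 19.8% were. The groups did not overlap in CPM for 2 of them (KRT15 and KRT19), where 5.12% of genes had such values on the lower side and 4.08% on the higher side. For KRT19 the groups were almost tied, at 1146 CPM in shNC replicate 1 and 1145 in shPLEK2 replicate 2. They overlapped in FPKM. The median log2 fold change was -0.23 over the 9 keratins and -0.002 over all genes tested. The genes were chosen on this contrast, so these counts describe them and are not evidence of a difference.

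Of the keratins outside the 10, 6 passed the filter. By edgeR's quasi-likelihood test 0 of the 6 had an adjusted p under 0.05, with or without the block. Over all genes 0 (0.0%) were called without the block, or 12 by DESeq2, and 400 (3.09%) had an unadjusted p under 0.05. With the block 0.849% were called. At an unadjusted p under 0.05, 0 of the 6 passed without the block. With it 2 passed, KRT13 and KRT6A, both lower, where 10.4% of all genes were lower at that threshold. KRT13, a keratin of the suprabasal layers of mucosal epithelia and the chromosomal neighbour of KRT15, had 7.51, 13.7 and 12.5 FPKM in shNC and 6.12, 11.3 and 8.80 in shPLEK2. Its pair ratios were -0.35, -0.30 and -0.53, and its log2 fold change with the block was -0.39 (SE 0.10, edgeR adjusted p = 0.0759). KRT6A, a keratin of wounded skin, had 3.94, 7.35 and 3.70 FPKM in shNC and 0.96, 5.43 and 3.14 in shPLEK2. Its ratios were -2.10, -0.46 and -0.26, so pair 1 held most of its difference (log2 fold change with the block -0.76, SE 0.23, edgeR adjusted p = 0.116).

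The other 4 were close to the detection limit, with mean levels under 1 FPKM in each group. With the block, the log2 fold change was -0.65 (SE 0.42) for KRT5, the basal partner of KRT14, -0.32 (SE 0.36) for KRT6B, -0.59 (SE 0.35) for KRT81 and 0.09 (SE 0.24) for KRT32. KRT81 and KRT32 are hair keratins. KRT32 was the only one of the 15 keratins tested with a fitted log2 fold change above 0. KRT6A, KRT6B and KRT81 had counts that were not whole in 3 libraries, and between 53.4% and 60.8% of their 50-base windows were found in no other gene, so their values are uncertain.

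**Figure D2:**
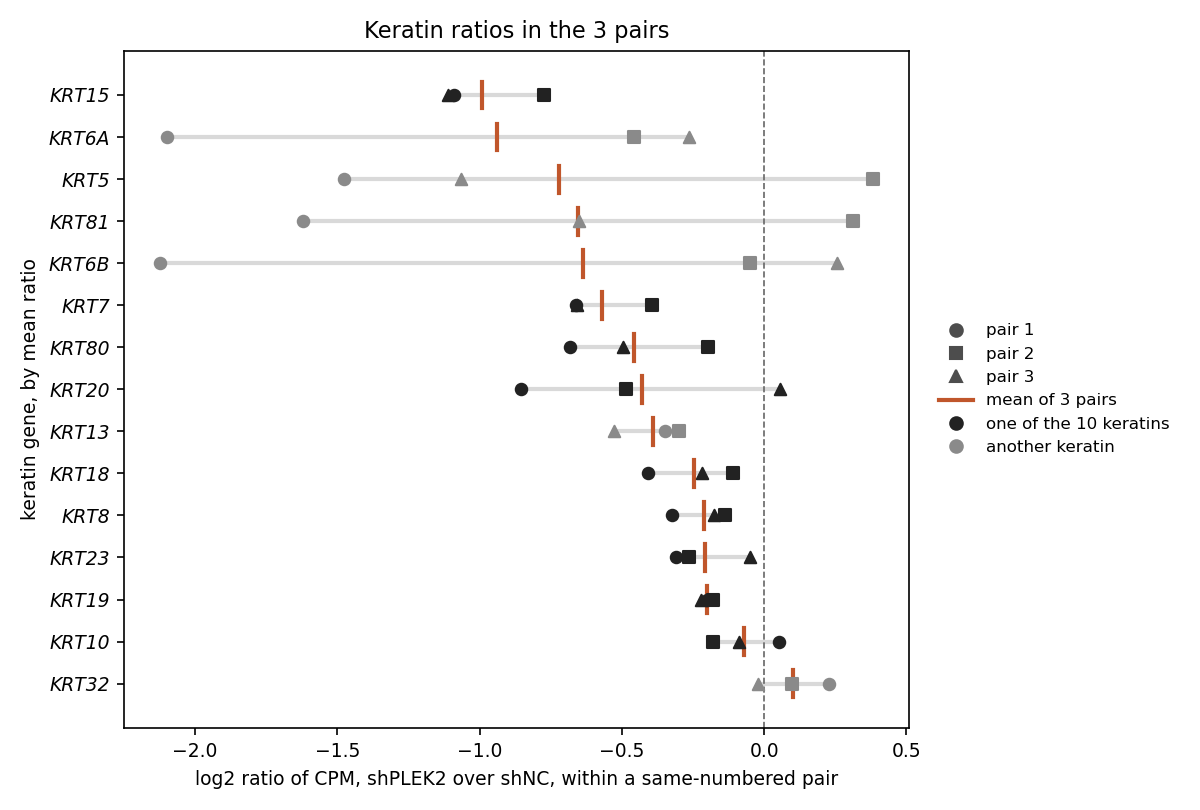
Log2 ratio of CPM, shPLEK2 over shNC, within each same-numbered pair (x axis) for the 15 keratins tested (y axis, by mean ratio), with an orange bar for the mean of 3 pairs, black for the 10 keratins and grey for others. KRT15 lies between -1.11 and -0.77 and KRT19 between -0.22 and -0.18, while KRT5, KRT6A, KRT6B and KRT81 spread widely.

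The balance of type I and type II keratins was similar in both groups. Summed type I FPKM divided by summed type II FPKM was 1.22, 1.19 and 1.26 in shNC and 1.22, 1.19 and 1.23 in shPLEK2, means of 1.22 ± 0.04 and 1.21 ± 0.02 (SD, n = 3 each). The ratio of KRT8 to KRT18, the partners of the core filament, was 1.19 ± 0.04 and 1.22 ± 0.04 FPKM per FPKM (SD, n = 3 each). The differences between the groups in both ratios were smaller than the spread of the libraries.

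Within the type I pool the place of KRT15 changed while those of KRT18 and KRT19 overlapped between the groups. KRT15 made up 0.609%, 0.612% and 0.668% of type I FPKM in shNC and 0.325%, 0.391% and 0.354% in shPLEK2. KRT18 made up 67.5% ± 0.42 and 67.0% ± 2.38 (SD, n = 3 each), and KRT19 30.8% ± 0.49 and 31.6% ± 2.41. In the type II pool, KRT8 made up 98.6% ± 0.21 in shNC and 98.9% ± 0.28 in shPLEK2. The summed FPKM of all keratins other than KRT8, KRT18 and KRT19 was 72.9, 98.0 and 82.9 in shNC and 48.5, 75.4 and 58.2 in shPLEK2, log2 ratios of -0.59, -0.38 and -0.51. KRT15 is part of that sum.

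Keratin levels also differed between the replicate numbers, a comparison that played no part in choosing the genes. When the replicate number was tested with edgeR, with group in the fit, 4 of the 9 keratins tested were called after adjustment at 0.05, where 28.4% of all genes did. They were KRT7 (adjusted p = 0.00037), KRT80 (0.0053), KRT18 (0.0151) and KRT8 (0.0152), and the same 4 passed in all 6 settings of that test. KRT15 (0.0663) and KRT19 (0.0924) did not pass. Outside the 10, KRT13 (0.00078) and KRT6A (0.0047) passed.

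The pattern over the numbers was shared by some of these keratins and not by others. KRT8, KRT18 and KRT7 were lowest in replicate 1 and highest in replicate 2, in both groups. For KRT7 the deviations from the group mean were -0.25, 0.37 and -0.12 in shNC and -0.34, 0.55 and -0.21 in shPLEK2 (log2 CPM). KRT80 was instead lowest in replicate 3 in both groups, at -0.48 and -0.51. KRT15 was lowest in replicate 1 in both groups, but its highest library was replicate 3 in shNC and replicate 2 in shPLEK2. What the replicate numbers stand for (a day, a batch, a culture) is not given in the sources used here.

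**Figure D3:**
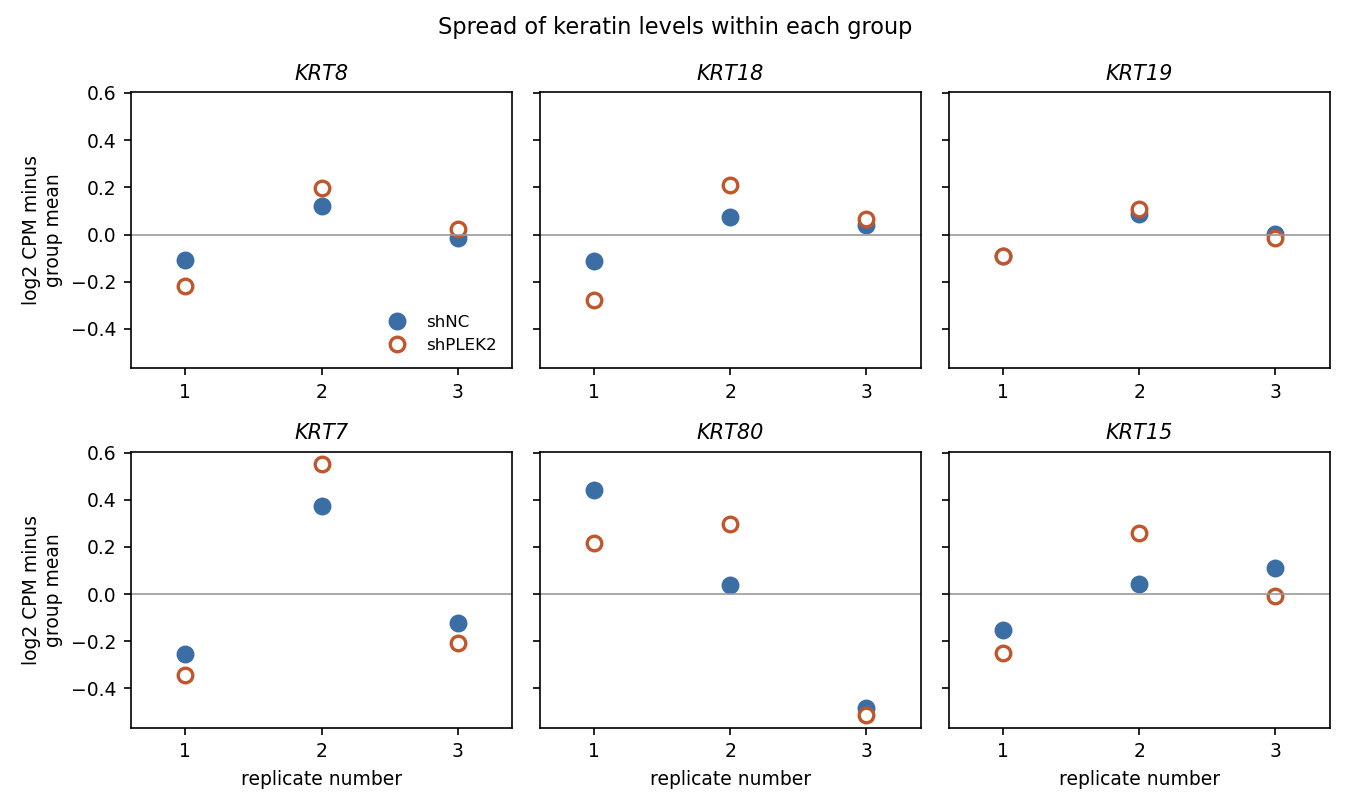
Log2 CPM minus the mean of the group (y axis) by replicate number (x axis) for 6 keratins, filled blue for shNC and open orange for shPLEK2. KRT7 ranges from -0.34 to 0.55 with the same order of libraries in both groups, and KRT80 is lowest in replicate 3 of both.

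Over the 6 libraries, log2 CPM of KRT8 and KRT18 correlated at r = 0.98, and at 0.97 after each group's mean was removed. With KRT15 the correlation was 0.92 for KRT19, 0.83 for KRT18, 0.81 for KRT8, 0.81 for KRT7, 0.75 for KRT20 and 0.70 for KRT23. It was 0.42 for KRT80 and 0.29 for KRT10. After the group means were removed, KRT15 correlated at 0.95 with KRT18, 0.91 with KRT8 and 0.88 with KRT19. The 6 points of each correlation share 2 groups and 3 replicate numbers, so these values are a description.

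Among 10159 genes with a mean log2 CPM over 3, those with the pattern most like KRT15 were not keratins. They were SMTN (r = 0.998 over the 6 libraries), DCUN1D5 (0.991), FPGS (0.990), TIMM17B (0.989), RANGAP1 (0.988) and ZDHHC7 (0.985). SMTN encodes an actin-binding protein and FPGS a folate-modifying enzyme. SMTN had 77.9, 81.1 and 81.7 CPM in shNC and 66.2, 70.9 and 68.4 in shPLEK2, a far smaller step than that of KRT15. ZDHHC7, a palmitoyltransferase, came closest in size, with 92.0, 102.5 and 101.6 CPM in shNC and 54.2, 72.6 and 68.7 in shPLEK2. The most opposite patterns were those of ALDH9A1 (r = -0.995), GPR137B (-0.984) and ACTR3B (-0.983). PLEK2 itself ranked 46th (r = 0.949) and KRT19, the keratin most like KRT15, ranked 103rd. KRT15 was chosen for its difference between the groups, and PLEK2 was the gene knocked down. A high r over the 6 libraries therefore reflects the split into groups. After the group means were removed, r with KRT15 was 0.65 for PLEK2, 0.95 for KRT18, 0.92 for KRT13 and 0.88 for KRT19. Over so few libraries, 44 genes had the same rank order as KRT15.

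KRT15 lies at chr17:41513745-41518890 (GRCh38), between KRT13 and KRT19, in the array of type I keratin genes. Levels along the array differed by orders of magnitude from gene to gene. KRT19, the next gene on one side, had 909 ± 57.1 FPKM in shNC and 810 ± 47.3 in shPLEK2 (SD, n = 3 each), and KRT13, on the other side, had 11.2 ± 3.27 and 8.73 ± 2.58. KRT37, KRT38, KRT35, KRT36, KRT9, KRT14, KRT16 and KRT17 had at most 13 counts in a library and were not tested. EIF1, a translation initiation factor beyond the end of the array, had 365 ± 13.9 and 359 ± 11.9 FPKM (SD, n = 3 each), with a log2 fold change of -0.06 (SE 0.05, edgeR adjusted p = 0.595 with the block).

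**Figure D4:**
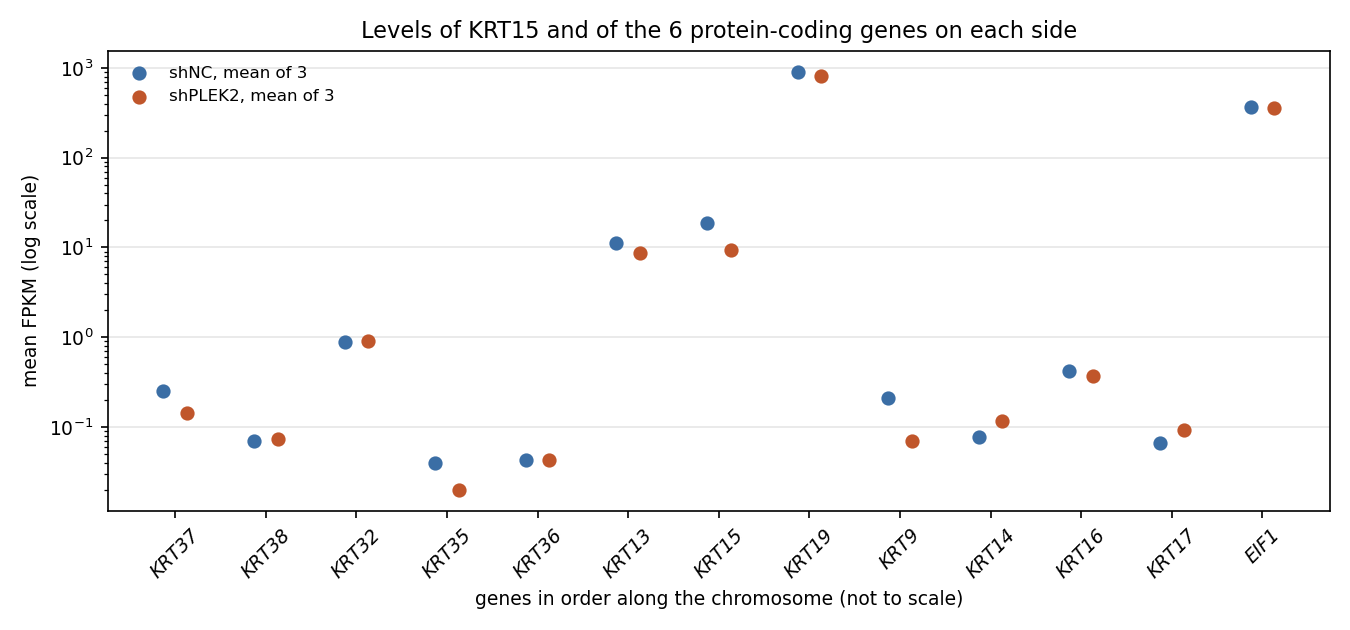
Mean FPKM (log axis, n = 3) in shNC (blue) and shPLEK2 (orange) of KRT15 and the 6 protein-coding genes on each side, in chromosomal order and not to scale. KRT19 stands at 909 and 810 FPKM beside KRT15 at 18.6 and 9.26, and most genes of the array lie under 1.

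The transcript length that the deposited values imply for KRT15 also differed. The authors' FPKM divides a count by a transcript length, and the length recovered from count, FPKM and library total was 1.87, 1.86 and 1.86 kb in shNC replicates 1 to 3 and 2.08, 1.88 and 1.89 kb in shPLEK2. It was longer in all shPLEK2 libraries, as it was for 3.07% of 8247 genes with at least 5 FPKM in every library. The KRT15 ratio in pair 1 was -1.19 on the FPKM scale and -1.09 on the CPM scale, 2 scales that differ in transcript length and in how library size is handled. KRT23 also varied, between 1.72 and 1.93 kb with overlapping groups. The implied lengths of KRT7, KRT8, KRT10, KRT18 and KRT19 varied by a factor of at most 1.011. That of KRT10 was shorter in all shPLEK2 libraries, as for 3.48% of genes, by under 1%. A recovered length need not equal an annotated one. For KRT8 the recovered mean in shNC was 1.655 kb, and its annotated transcript measures 1784 nt. The recovered length of KRT15 was therefore not matched to a transcript. Protein-coding KRT15 transcripts in the annotation measure 903, 1712, 2394 and 3758 nt. How reads were divided among these transcripts was not analysed here.

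Genes that anchor keratin filaments were examined next. The lists were written from general knowledge, with earlier results of these data known. Their p-values are therefore a description and not an independent test. The genes named include those with the smallest block p in each list. Without the replicate block, edgeR's quasi-likelihood test called 0 genes in any list after adjustment. At an unadjusted p under 0.05 it gave 2 of 15 desmosome and hemidesmosome genes and 3 of 12 keratin linkers. Of all genes, 3.09% passed that threshold without the block. With the block, 3 of 15 desmosome and hemidesmosome genes tested fell and 0 rose, where 0.725% of all genes fell and 0.123% rose. PLEC (plectin, which links keratins to hemidesmosomes) had 126, 183 and 167 FPKM in shNC and 89.9, 139 and 132 in shPLEK2 (log2 fold change -0.44, SE 0.06, edgeR adjusted p = 0.0041 with the block). It was lower in each pair, and the groups overlapped because its replicate 1 libraries were the lowest in both. ITGB4, the hemidesmosomal integrin that binds plectin, had 104, 111 and 113 FPKM in shNC and 79.0, 92.6 and 99.2 in shPLEK2 (-0.31, SE 0.06, edgeR adjusted p = 0.0287 with the block). Its groups did not overlap.

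JUP (plakoglobin, of desmosomes and adherens junctions) was the third, at 172 ± 28.8 FPKM in shNC and 147 ± 30.6 in shPLEK2 (log2 fold change -0.27, SE 0.05, edgeR adjusted p = 0.0452 with the block). PKP3, another desmosomal plaque protein, had -0.23 (SE 0.05, adjusted p = 0.0695), and DSP, the desmosomal protein that binds keratins, had -0.08 (SE 0.07, adjusted p = 0.540). DSC2, a desmosomal cadherin, had 0.13 (SE 0.06, adjusted p = 0.234) and was the 1 gene of the list that was higher in all 3 pairs, against 7 that were lower in all 3. Of all genes tested, 19.8% were higher in all 3 pairs and 21.1% were lower. The median log2 fold change of the list was -0.08. Of its 15 genes, 11 also differed between the replicate numbers, where 28.4% of all genes did. With replicate 2 left out of both groups, 0 of the 15 passed with the block, where 14 of all genes did. With replicate 1 left out, 6 of the 15 did, where 528 of all genes did.

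Among keratin linkers and binding proteins, 1 of 12 genes tested fell with the block and 0 rose. Of all genes, 0.725% fell and 0.123% rose. The linker that fell was EPPK1 (epiplakin, a plakin that binds keratins), at 3.63, 4.35 and 3.98 FPKM in shNC and 2.64, 3.78 and 3.20 in shPLEK2 (log2 fold change -0.35, SE 0.06, edgeR adjusted p = 0.0279 with the block). PPL (periplakin) had -0.30 (SE 0.06, adjusted p = 0.0510), HSPB1, a small heat shock protein, -0.24 (SE 0.06, adjusted p = 0.0649) and FAM83H, which recruits a kinase to keratins, -0.18 (SE 0.06, adjusted p = 0.129). KRTCAP2 had -0.12 (SE 0.06, adjusted p = 0.308). The list's median was -0.12, and 6 of the 12 genes were lower in all 3 pairs, where 21.1% of all genes were. In the other direction, 0 were higher in all 3, where 19.8% of all genes were. Without replicate 2 the block fit called 0 of the 12 and 14 of all genes. Without replicate 1 it called 3 of the 12 and 528 of all genes, and without replicate 3 it called 2 and 296.

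**Figure D5:**
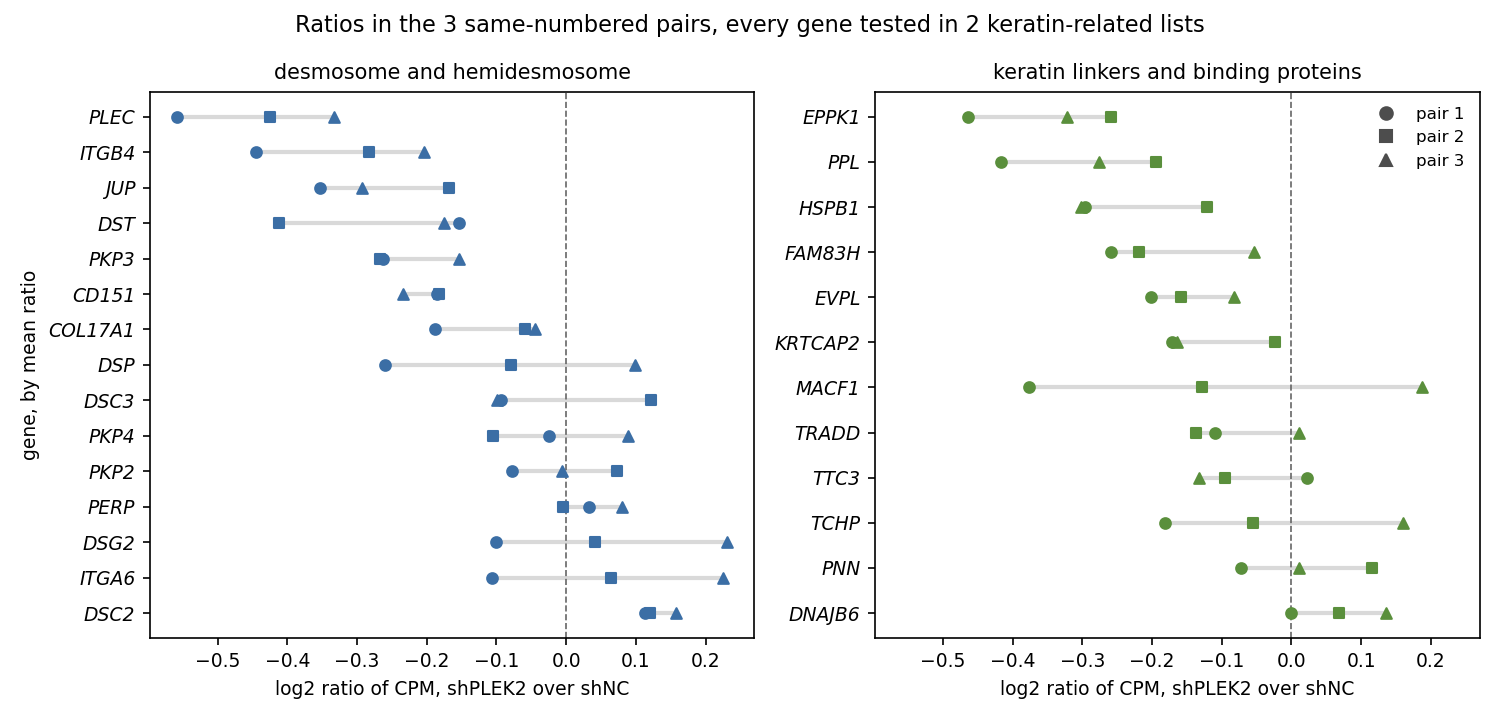
Log2 ratio of CPM, shPLEK2 over shNC, in each same-numbered pair (x axis) for all 15 desmosome and hemidesmosome genes (left) and all 12 keratin linkers and binding proteins (right) that were tested. PLEC, ITGB4, JUP and EPPK1 lie left of 0 in all 3 pairs, and DSC2 lies right of 0 in all 3.

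No gene passed in the lists of epithelial transcription factors (0 of 23 tested), other intermediate filaments (0 of 9) and cornified envelope (0 of 3) in edgeR's test with or without the block. DESeq2 with the block called 1 other intermediate filament gene and 74 of all genes. The edgeR block fit without replicate 1 also called 1 gene of that list, and 528 of all genes. At an unadjusted p under 0.05 in edgeR's test with the block, 2, 1 and 0 genes of these 3 lists were lower, where 10.4% of all genes were. The median log2 fold changes of the 3 lists were -0.01, -0.02 and -0.11. Among the transcription factors, GLI2 had -0.55 (SE 0.17, adjusted p = 0.120 with the block), CEBPA -0.26 (SE 0.10, adjusted p = 0.186), ELF3 -0.13 (SE 0.07, adjusted p = 0.335), GRHL1 0.18 (SE 0.10, adjusted p = 0.347) and FOXM1 -0.12 (SE 0.08). LMNA, which encodes the nuclear lamins A and C, was the nearest of the other intermediate filament genes at -0.21 (SE 0.05, adjusted p = 0.0764). NES had -0.14 (SE 0.08), DES 0.19 (SE 0.19), PRPH -0.20 (SE 0.20) and LMNB2 -0.02 (SE 0.05). The 3 cornified envelope genes tested, SBSN, CNFN and TGM1, had -0.27 (SE 0.27), -0.12 (SE 0.16) and -0.05 (SE 0.20). Summed CPM of the cornified envelope genes was 11.97 to 12.2 in shNC and 9.02 to 12.02 in shPLEK2, and IVL and FLG, which define that state, had at most 3 counts.

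Most markers of cells other than epithelium were near 0, with 2 exceptions. CD68, a lysosomal protein of macrophages, had 27.6 FPKM in shNC and 26.1 in shPLEK2, and COL1A1, a collagen of fibroblasts, had 5.17 and 4.56. Each stood alone in its list: CD14 and CD3E had at most 3 counts in a library, as did COL1A2 and COL3A1, and LYZ, CSF1R and VWF had under 1 FPKM. COL1A1 and CD68 made up most of the summed fibroblast and leukocyte markers (27.5 to 33.9 CPM in shNC and 25.0 to 28.5 in shPLEK2 for fibroblasts, 38.6 to 56.4 and 39.9 to 52.1 for leukocytes). Summed endothelial markers were under 2 CPM in every library. Summed colon epithelium markers were 385 to 396 CPM in shNC and 358 to 375 in shPLEK2, and none of the 4 that could be tested passed with the block.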

How the data were processed

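RNA of 3 shNC and 3 shPLEK2 libraries of HCT116 cells was analysed, with groups and replicate numbers taken from the labels. The authors deposited an estimated count per gene and library, without normalization and not always whole, and a value read as FPKM, scaled by the authors to transcript length and library total. The submitters' processing notes name HISAT2 2.0.4, Bowtie2 2.2.5, RSEM 1.2.12, DESeq2 1.4.5 and, although the table holds human genes, the mouse build GRCm38.p6. Coordinates and sequences here come from GENCODE 44 and RefSeq on GRCh38, which may not be the authors' annotation. Group means and comparison columns of the table were not used.

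Counts were rounded and fitted over the whole table with edgeR 4.0.16 in R 4.3.3 (filterByExpr, TMM factors 0.984 to 1.021, quasi-likelihood test, Benjamini-Hochberg adjustment over 12959 genes, threshold 0.05). Standard errors (SE) of fold changes, on the log2 scale, were obtained by dividing them by the root of the F statistic. Alternatives used DESeq2 1.42.0 and limma 3.58.1 on log2(FPKM + 1). Tests were tried on simulated counts. Replicate numbers pair the libraries: over 10160 genes, same-numbered libraries deviated together from their group means (r = 0.736, 0.558 and 0.554), while others gave -0.629 to 0.358. This comes from the values and the shared numbers, not from a stated batch. Nothing states that replicates were separate cultures, so p-values measure only the spread between these libraries. CPM ratios are of TMM-scaled counts, and correlations and list figures used a prior count of 2.

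The keratins and gene lists were chosen with earlier results of these data known. Genes named are the 10 keratins, other keratins that passed the filter, in each list the 4 genes with the smallest block p and the 2 with the highest FPKM, the 6 most and 3 least like KRT15, its 6 neighbours on each side, and PLEK2. DSP, DSC2 and further markers at or near 0 were named after their values were seen. Keratin promoters and protein sequences are not shown here.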

Additional observations from a re-analysis of the deposited data

How the results depend on the processing

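Every tested keratin of the 10 except KRT10 had a log2 fold change under 0 in all 17 alternatives. KRT15 ranged from -1.12 to -0.86, KRT19 from -0.25 to -0.15 and KRT10 from -0.15 to 0.02, its highest value without shNC replicate 3. The size of the others rested more on single libraries. Without shPLEK2 replicate 1, KRT8 went from -0.21 to -0.10, KRT18 from -0.23 to -0.11, KRT23 from -0.21 to -0.12 and KRT20 from -0.42 to -0.25. Without shNC replicate 2, KRT7 went from -0.54 to -0.32, KRT8 to -0.13 and KRT23 to -0.08, and without shPLEK2 replicate 2 KRT7 was -0.87. Without shNC replicate 1, KRT80 went from -0.46 to -0.20, and without shPLEK2 replicate 3 to -0.25. Limma-trend on FPKM gave -0.29 for KRT80 and -0.19 for KRT20. Over all genes, edgeR without the block called 0 genes, DESeq2's Wald test 12, and edgeR with the block 110. Leaving out 1 library without the block gave 0 to 1 genes, and leaving out a replicate number with the block, an alternative added after seeing the data, gave 528, 14 and 296 without replicates 1, 2 and 3. With library totals in place of TMM the block fit called 109 lower and 83 higher genes, against 94 and 16, and the median gene moved by 0.03. Of the 15 keratins tested, most of them chosen on this contrast, the block fit called 2, where it called 110 of all genes. DESeq2 with the block called 3 keratins, where it called 74 of all genes. With a replicate number left out, the block fit called 2 to 4 keratins, where it called 14 to 528 of all genes. The 2 of the block fit were KRT15 and KRT7, to which DESeq2 with the block gave no adjusted p. The 3 of DESeq2 were KRT8, KRT18 and KRT19. Nothing is read from these counts, which are a description and not a test of the keratins. The replicate-number test called 3684 genes with edgeR and 1782 with DESeq2. By counts in place of FPKM, the type I to type II ratio was 0.986 in shNC and 0.973 in shPLEK2, and KRT15 was 0.879% and 0.520% of type I counts. By Spearman's rho, 3 of the 6 genes most like KRT15 were kept. Genes with under 10 counts in a library are measured poorly at this depth. The cause of these changes was not tested.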
